A study of Mus musculus with 48 samples.

Results

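The addition of vitamin C (Vc) to AM580 at the first sampled time of the induction was examined here, through the 4 libraries that differ only in Vc, 2 labelled V580_24h and 2 labelled AM580_24h, out of 48 samples in the series. The members were the whole groups, taken by their labels, and no measured value entered the choice. The study looked for small molecules that turn mouse embryonic stem cells (ESCs) into cells resembling the gonadal somatic cells of the fetal ovary, called gonadal somatic cell-like cells (GSCLCs). AM580 is a synthetic retinoid that activates retinoic acid receptor alpha, and V580 is the name of Vc and AM580 given together. All 4 libraries are bulk poly(A) RNA of cells induced from ESCs of the C57BL/6 strain and collected 24 h after the start of treatment, and the study describes the ESCs as female, maintained on feeder fibroblasts. The control (Con_24h) and Vc-only (Vc_24h) libraries of the same time, 2 each, lack AM580, the control cells having been induced with neither molecule, and the 48 h libraries of AM580 and V580 give the same contrast 1 day later. No label says whether the 2 libraries of a group came from separate cultures, so p-values measure the spread between these libraries, which may be technical.

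Vc is a reducing agent that keeps iron in its ferrous form for the 2-oxoglutarate-dependent dioxygenases. In ESCs this family includes the TET enzymes, which oxidise methylated cytosine in DNA and are known to open germline gene promoters, and the JmjC histone demethylases. It also includes the prolyl hydroxylases that mark the hypoxia-inducible factors (HIF) for degradation and those that hydroxylate collagen. Retinoic acid receptors are transcription factors whose textbook targets in ESCs are the Hox clusters, Cyp26a1 and Rarb. The comparison of V580 with AM580 asks what Vc changed in cells that already received the retinoid.

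The values were fragments per kilobase of exon, scaled to the mapped fragments of each library (FPKM). From the steps between FPKM values, the 24 h and 48 h libraries were estimated to hold between 16400000 and 22300000 fragments each. The root mean square log2 difference between 2 libraries was 0.108 for the AM580 pair and 0.105 for the V580 pair, against 0.179 to 0.186 between an AM580 and a V580 library. Over the 8 libraries at 24 h, the first principal component (46.2% of the variance) separated the libraries with AM580 from those without it, and the second (30%) separated those with Vc from those without it. The AM580 label was met by its target: Cyp26a1, which encodes a retinoic acid-degrading enzyme, stood at 4.59 and 4.93 FPKM in the control libraries and at 22.4 and 22.4 FPKM in the AM580 libraries. ESC markers were high in all 4 libraries, with Pou5f1 at 645 and 656 FPKM with AM580 and at 597 and 590.3 FPKM with V580. Of the gonadal somatic markers, Foxl2, the granulosa cell factor, gave 14 and 6 fragments with AM580 and 7 and 6 with V580, and it was too low to be tested.

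Adding Vc to AM580 for 24 h changed many genes by small amounts on the log2(FPKM + 1) scale. Of 10644 genes tested, 792 passed the test as higher in V580 (7.44%) and 778 as lower (7.31%), at an adjusted p below 0.05 in limma. The median absolute difference of these 1570 genes was 0.28 on the log2(FPKM + 1) scale, on which all differences below are given, and the median over all tested genes was -0.0076. At an unadjusted p under 0.05 the count was 3001. Counts of passing genes in each list below stand beside the shares of 7.44% higher and 7.31% lower. When FPKM were scaled to equal library sums, the balance moved to 963 higher and 632 lower. With limma-voom on the recovered fragments, filled in from FPKM for some genes, it was 1052 higher and 728 lower. The count fell to 803 without AM580 replicate 1, 896 without AM580 replicate 2, 847 without V580 replicate 1 and 792 without V580 replicate 2, where the lone library of a group is assumed to vary like the other groups.

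Only 7 genes both passed and differed at least 2-fold on that scale, 4 higher (0.0376%) and 3 lower (0.0282%) in V580. Genes of low FPKM can change more than 2-fold in FPKM and still fall short on it. Fgf5, at 0.737 and 0.782 FPKM with AM580 and 0.151 and 0.197 FPKM with V580, passed without counting among the 7. The 4 higher genes were Rnf125, Ly6a, Mep1b and Kng2, and the 3 lower genes were Lefty1, Msx1 and Cdkn1c. Mep1b encodes a subunit of the metalloprotease meprin and was measured at 0.507 and 0.709 FPKM with AM580 and 4.43 and 4.29 FPKM with V580 (difference 1.74 ± 0.075 (SE), adjusted p = 5.33e-09). Kng2, a kininogen gene, rose from 0.347 and 0.490 FPKM to 2.21 and 2.64 FPKM (1.27 ± 0.072 (SE), adjusted p = 8.61e-08). Both lie below the 5 FPKM used to choose the leading genes and were singled out after their values were seen.

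The 12 largest rises were taken among genes that passed, with a mean of at least 5 FPKM in V580 and no overlap of the libraries. V580 lay above AM580 without overlap in 29.2% of the tested genes and below it in 32.3%. The rises were led by Rnf125 and Ly6a. Rnf125, an E3 ubiquitin ligase, was at 1.14 and 1.38 FPKM in the AM580 libraries and 6.50 and 6.61 FPKM in the V580 libraries, a 5.19-fold higher mean (difference 1.74 ± 0.11 (SE), adjusted p = 1.85e-07). Ly6a, which encodes the surface antigen Sca-1 (chr15:74994877-74998031, minus strand, GENCODE vM21 on GRCm38), was at 4.76 and 4.59 FPKM without Vc and 17.0 and 18.4 FPKM with it (1.72 ± 0.10 (SE), adjusted p = 1.25e-07). In both genes the V580 libraries stood well above the AM580 libraries, with a gap many times the distance within a pair. Apcdd1, a membrane antagonist of Wnt signalling, rose from 2.61 and 2.85 to 6.73 and 5.90 FPKM (0.97 ± 0.089 (SE), adjusted p = 9.79e-06). Rdm1, a RAD52-motif gene, rose from 9.69 and 9.86 to 18.8 and 18.3 FPKM (0.86), and Bcl3, an atypical IkB protein, rose from 10.5 and 10.4 to 16.7 and 18.7 FPKM (0.71). In all 3 the libraries did not overlap, as the choice required.

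Nlrp4f, of a gene family expressed in the oocyte and early embryo, was the most abundant of the 12, at 36.9 and 36.9 FPKM with AM580 and 66.1 and 66.4 FPKM with V580 (0.83 ± 0.052 (SE), adjusted p = 1.85e-07). It has close paralogs, so reads may be shared between copies, and the same holds for the zinc finger gene Zfp961 (18.7 and 18.6 to 29.7 and 30.0 FPKM, 0.65). B4galt6, a lactosylceramide synthase, rose from 11.1 and 11.4 to 20.4 and 20.7 FPKM (0.81). Themis2, a signalling adaptor of immune cells, rose from 6.72 and 6.15 to 10.6 and 11.2 FPKM (0.68 ± 0.093 (SE), adjusted p = 0.000235). It was the only one of the 12 that did not pass with Vc alone, at 1.52 and 1.73 FPKM in control and 1.35 and 1.501 FPKM in Vc libraries. The remaining rises were Fam131c (0.73), Kank4 (0.65) and the germline gene Dazl, described further on.

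**Figure D1:**
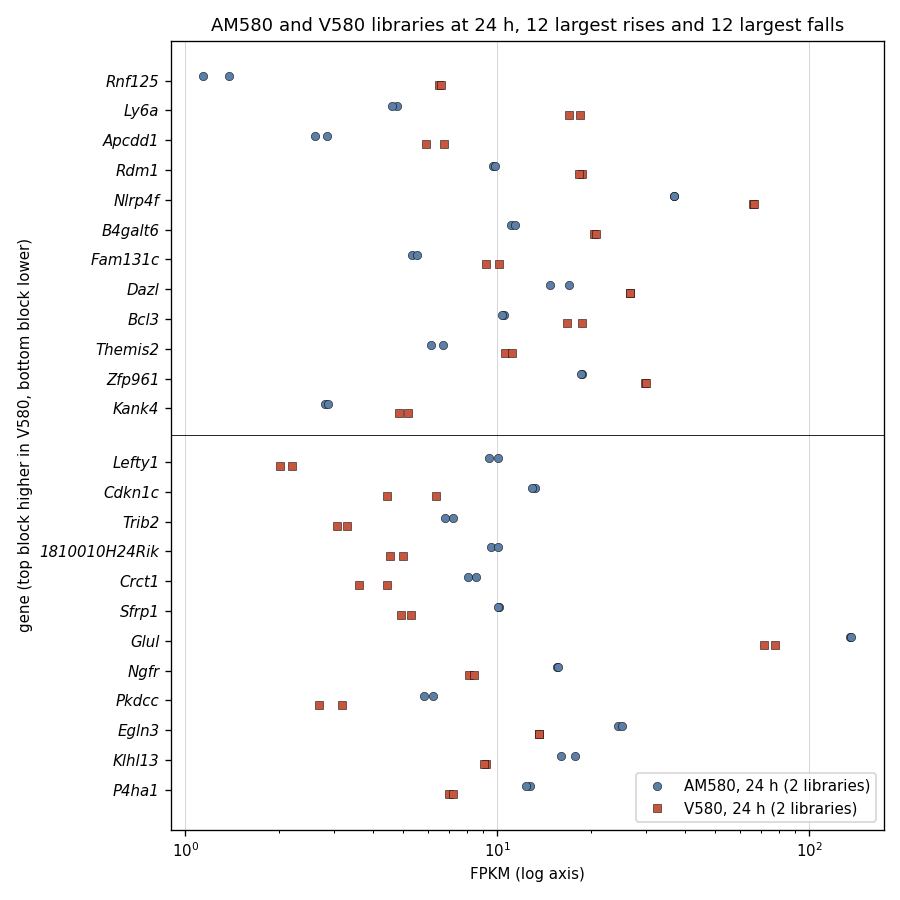
FPKM (log axis) of the 12 largest rises (top block) and the 12 largest falls (bottom block) in the 2 AM580 libraries (blue circles) and the 2 V580 libraries (red squares) at 24 h, each point being 1 library. No AM580 point overlaps a V580 point of the same gene, a condition that the choice of these genes required.

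Rnf125 and B4galt6 are neighbours on chromosome 18, and so is Mep1b. In gene order, the 6 tested genes of this stretch of 542 kb were Dsg2, B4galt6, Trappc8, Rnf125, Rnf138 and Mep1b, and 5 of the 6 passed as higher in V580. Dsg2, a desmosomal cadherin, rose from 4.22 and 4.30 to 6.87 and 7.05 FPKM (0.60 ± 0.092 (SE), adjusted p = 0.000561), and Rnf138, another E3 ubiquitin ligase, from 26.3 and 28.2 to 35.5 and 36.9 FPKM (0.40 ± 0.056 (SE), adjusted p = 0.000258). Trappc8, a vesicle-tethering subunit, was at 6.74 and 6.51 FPKM with AM580 and 7.28 and 7.20 FPKM with V580 and did not pass (0.11 ± 0.056 (SE), adjusted p = 0.209). The 5 that rose also passed as higher with Vc alone, and 3 of them (Mep1b, Rnf125 and Rnf138) passed at 48 h. Of 10534 windows of 5 consecutive tested genes, 3 held at least 4 genes that passed as higher by more than 0.3, of which 2 were in this stretch and 1 on chromosome 7 (Anpep, Ap3s2, Arpin, Zfp710 and Idh2), and no window held 4 such falls. The stretch and the window were chosen after the values were seen.

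The 12 largest falls were led by Lefty1, a secreted antagonist of Nodal (chr1:180935022-180938400, plus strand). It was at 10.03 and 9.44 FPKM with AM580 and 2.21 and 2.01 FPKM with V580, 78.3% lower (-1.79 ± 0.045 (SE), adjusted p = 4.4e-12). Cdkn1c, the imprinted gene of the cyclin-dependent kinase inhibitor p57, fell from 13.3 and 12.9 to 6.37 and 4.43 FPKM (-1.16 ± 0.13 (SE), adjusted p = 3.81e-05), with the V580 libraries farther apart than the AM580 libraries. Trib2, a pseudokinase, fell from 7.22 and 6.82 to 3.06 and 3.30 FPKM (-0.94 ± 0.083 (SE), adjusted p = 6.13e-06). Glul, glutamine synthetase, was the most abundant of the 12 and fell from 135 and 137 to 71.9 and 78.0 FPKM, 44.8% lower (-0.85 ± 0.041 (SE), adjusted p = 1.45e-08). Ngfr, the low-affinity neurotrophin receptor, fell from 15.5 and 15.6 to 8.11 and 8.43 FPKM (-0.84), and Pkdcc, a secreted tyrosine kinase, from 6.21 and 5.83 to 3.18 and 2.69 FPKM (-0.84). Klhl13, a cullin-3 adaptor on the X chromosome, fell from 17.7 and 16.001 to 9.19 and 9.10 FPKM (-0.81 ± 0.043 (SE), adjusted p = 4.21e-08). The other falls were 1810010H24Rik (-0.91), Crct1 (-0.90), Sfrp1, Egln3 and P4ha1, the last 3 described with their pathways.

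A pair of the 12 leading falls belong to the HIF and collagen pathways. Egln3 encodes the HIF prolyl hydroxylase PHD3 and is itself a HIF target, and P4ha1 encodes the catalytic subunit of collagen prolyl 4-hydroxylase. The core motifs that HIF binds include ACGTG. The 250 bases before the start of both genes are shown with this core, on either strand, in capitals (RefSeq, GRCm38.p6, written 5′ to 3′ on the strand of the gene). The Egln3 window is chr12:54203875-54204124 on the minus strand, and the P4ha1 window is chr10:59323046-59323295 on the plus strand.
Egln3: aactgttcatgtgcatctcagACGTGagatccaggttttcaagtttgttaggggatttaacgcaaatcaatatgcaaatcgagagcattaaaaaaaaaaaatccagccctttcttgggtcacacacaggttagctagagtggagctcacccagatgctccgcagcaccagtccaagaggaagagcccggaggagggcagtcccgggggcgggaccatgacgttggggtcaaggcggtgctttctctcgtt
P4ha1: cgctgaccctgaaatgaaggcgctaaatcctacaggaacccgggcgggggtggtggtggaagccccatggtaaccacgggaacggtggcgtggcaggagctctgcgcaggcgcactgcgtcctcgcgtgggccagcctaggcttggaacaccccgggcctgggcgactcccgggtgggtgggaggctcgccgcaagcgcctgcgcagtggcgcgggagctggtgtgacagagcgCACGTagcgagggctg
The Egln3 window held 1 copy as ACGTG, and the P4ha1 window held 1 copy as its reverse complement CACGT. Of the 10 HIF targets that passed as lower, 9 had a promoter in the RefSeq table and 8 of these held the core, against 22 of 30 among all tested HIF targets with one (73.3%) and 2200 of 8472 tested genes with a promoter (25.97%). Among all genes that passed, 144 of 605 lower genes (23.8%) and 163 of 621 higher genes (26.2%) with a promoter held it. The tested germline genes, described further on, held it in 7 of 8 (87.5%). Narf, a HIF target that also passed as lower, held no copy. Over all 27025 genes with a promoter the share was 18.5%, and a copy that is part of CACGTG counts in all these shares. A match is only a match of letters, and other forms of the HIF core were neither marked nor counted.

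Egln3 was at 24.5 and 25.1 FPKM with AM580 and 13.6 and 13.6 FPKM with V580, 45.0% lower (-0.82 ± 0.048 (SE), adjusted p = 1.11e-07). P4ha1 fell from 12.7 and 12.4 to 7.03 and 7.22 FPKM (-0.74 ± 0.075 (SE), adjusted p = 2.14e-05). Narf, a prelamin A-binding protein in the list of HIF targets, fell from 3.67 and 3.99 to 1.45 and 1.74 FPKM (-0.90 ± 0.066 (SE), adjusted p = 9.62e-07). In each gene both V580 libraries lay below both AM580 libraries by far more than the pairs were apart. Pfkfb3, which makes the glycolytic activator fructose 2,6-bisphosphate, fell from 5.19 and 4.03 to 2.60 and 2.49 FPKM (-0.65 ± 0.094 (SE), adjusted p = 0.00033), Vegfa by 0.28 and the glucose transporter gene Slc2a1 by 0.25 on the log2 scale.

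The HIF targets did not move as 1 block. Of the 36 tested, 4 passed as higher and 10 as lower, with a median of -0.079, and leaving out 1 library gave 3 to 4 higher and 6 to 7 lower. The shares over all tested genes were 7.44% higher and 7.31% lower. The 4 higher HIF targets included Pdk1, the kinase that closes pyruvate dehydrogenase (13.01 and 12.7 to 18.8 and 18.3 FPKM, 0.50), and Ak4, a mitochondrial adenylate kinase (0.38), both named after their values were seen. Slc2a3 (-0.05 ± 0.043 (SE), adjusted p = 0.527) and Bnip3 (-0.01 ± 0.078 (SE), adjusted p = 0.965), a glucose transporter and a mitophagy receptor, did not pass at 24 h. Among the 19 glycolysis genes, 2 passed as higher and 8 as lower (median -0.09), with 4 higher under equal library sums. The lactate exporter Slc16a3 fell from 27.2 and 27.8 to 19.8 and 19.7 FPKM (-0.46 ± 0.05 (SE), adjusted p = 3.82e-05). Pkm, pyruvate kinase, fell from 752 and 745 to 564 and 559.6 FPKM (-0.41 ± 0.043 (SE), adjusted p = 2.51e-05), and Pfkl from 36.6 and 34.4 to 27.2 and 28.0 FPKM (-0.35). The other phosphofructokinase genes went the other way, Pfkp from 4.31 and 4.81 to 6.24 and 6.06 FPKM (0.36 ± 0.06 (SE), adjusted p = 0.000868) and Pfkm by 0.28. Gapdh was listed at 11.2 and 80.7 FPKM in the AM580 and 65.3 and 4.82 FPKM in the V580 libraries, a spread within pairs that leaves it unusable.

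Of 13 collagen hydroxylase and collagen-folding genes, 0 passed as higher and 3 as lower, P4ha1, P4ha2 (-0.26) and P4hb (-0.18), and the median was -0.082. P4ha2 did not pass in any of the 4 fits with a library left out (adjusted p = 0.121 without AM580 replicate 1, 0.188 without AM580 replicate 2, 0.112 without V580 replicate 1 and 0.212 without V580 replicate 2), and P4hb, the shared beta subunit, had an adjusted p of 0.0598 without AM580 replicate 1 and 0.065 without V580 replicate 2. The lysyl hydroxylase genes Plod1, Plod2 and Plod3 did not pass (0.12, -0.08 and 0.12). Collagen chains gave 1 higher (Col1a2) and 1 lower (Col5a2) of 19, both lost when a library was left out (Col1a2 adjusted p = 0.297 without AM580 replicate 2, 0.277 without V580 replicate 1 and 0.063 without V580 replicate 2, Col5a2 adjusted p = 0.179 without AM580 replicate 1 and 0.108 without V580 replicate 2). Of 18 histone lysine demethylase genes, only Kdm4c passed, from 24.3 and 24.1 FPKM with AM580 to 17.8 and 17.2 FPKM with V580 (-0.45 ± 0.043 (SE), adjusted p = 1.51e-05). Kdm4c encodes a demethylase of histone H3 lysine 9. The counts of collagen chains and of demethylases did not exceed the shares over all tested genes, 7.44% higher and 7.31% lower.

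Germline genes known to need TET enzymes formed the list with the highest median, but only 10 of its 38 members were tested. Only 12 of the 38 had FPKM values. Several were already expressed without Vc, such as Ddx4 (29.2 and 28 FPKM with AM580) and Rnf17 (21.2 and 19.9 FPKM with AM580). Of 10 tested, 5 passed as higher and 0 as lower, with a median of 0.22 against -0.0076 over all tested genes, and 3 to 5 passed with 1 library left out. Shares over all tested genes were 7.44% higher and 7.31% lower. Dazl encodes an RNA-binding protein of germ cells, and Smc1b a meiosis-specific cohesin subunit. Their 250 bases before the start are shown with each CG dinucleotide, the site of DNA methylation, in capitals (RefSeq, GRCm38.p6, strand of the gene). The windows are chr17:50293621-50293870 and chr15:85131958-85132207, both on the minus strand.
Dazl: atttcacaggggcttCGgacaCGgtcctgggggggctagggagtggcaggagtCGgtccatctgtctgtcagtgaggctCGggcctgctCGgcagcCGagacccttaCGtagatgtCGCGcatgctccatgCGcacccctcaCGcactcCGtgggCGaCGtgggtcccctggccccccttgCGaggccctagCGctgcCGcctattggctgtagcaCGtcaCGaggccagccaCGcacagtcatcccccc
Smc1b: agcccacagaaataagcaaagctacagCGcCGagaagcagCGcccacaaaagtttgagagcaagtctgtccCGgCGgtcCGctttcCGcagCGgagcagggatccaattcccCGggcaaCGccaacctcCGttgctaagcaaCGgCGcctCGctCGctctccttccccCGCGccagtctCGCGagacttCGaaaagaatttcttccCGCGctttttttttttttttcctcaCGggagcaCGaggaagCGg
The Dazl window held 20 CG and the Smc1b window 25, against a median of 18 over the tested genes with a promoter. The 8 germline genes with a promoter had a median of 23.5, and the 4 of them that passed as higher had a median of 22.5. Methylation was not measured in these libraries.

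Dazl was at 17.0 and 14.8 FPKM with AM580 and 26.6 and 26.7 FPKM with V580, 1.67-fold higher (0.71 ± 0.067 (SE), adjusted p = 1.31e-05). Smc1b rose from 1.55 and 1.68 to 3.23 and 3.11 FPKM, 1.96-fold (0.67 ± 0.073 (SE), adjusted p = 3.53e-05). Fkbp6, a chaperone of the piRNA pathway, rose from 14.3 and 17.4 to 20.1 and 21.9 FPKM (0.39 ± 0.08 (SE), adjusted p = 0.00451). Sycp3, of the synaptonemal complex, rose from 2.54 and 2.70 to 3.45 and 4.28 FPKM (0.42 ± 0.12 (SE), adjusted p = 0.0297), and Piwil2, a piRNA-binding protein, by 0.36. The Sycp3 difference was 0.392 without AM580 replicate 1, 0.454 without AM580 replicate 2 and 0.299 without V580 replicate 2. That of Fkbp6 was 0.259 without AM580 replicate 1 and 0.332 without V580 replicate 2. Neither call held in these fits, which leave 1 library in a group. The other 5 members did not pass, among them Ddx4 (0.09 ± 0.055 (SE), adjusted p = 0.339), the germ cell helicase Vasa, and Stag3 (-0.01 ± 0.07 (SE), adjusted p = 0.969), another meiotic cohesin gene. The 10 tested germline genes thus split into 5 that rose and 5 with differences between -0.06 and 0.09.

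Of 12 TET and DNA methyltransferase genes and their partners, 3 passed as higher and 1, Dnmt3l, as lower, and with a library left out 1 to 3 passed as higher and 0 as lower. Among all tested genes, 7.44% passed as higher and 7.31% as lower. Tet1 was at 24.5 and 25.04 FPKM with AM580 and 31.2 and 28.3 FPKM with V580 and did not pass (0.25 ± 0.15 (SE), adjusted p = 0.317), although it passed as higher in the fit of the 4 libraries only (adjusted p = 0.0121). Tet2 (-0.06 ± 0.10 (SE)) and Tet3 (0.02 ± 0.077 (SE)) did not pass either. Dnmt3b, a de novo methyltransferase, rose from 90.2 and 92.3 to 104 and 105 FPKM (0.19 ± 0.039 (SE), adjusted p = 0.00399), but had an adjusted p of 0.051 without AM580 replicate 1, and Uhrf1, the maintenance cofactor, rose from 124 and 122 to 140.4 and 140.4 FPKM (0.19 ± 0.034 (SE), adjusted p = 0.00168). Among 5 Vc transport and reduction genes, the main Vc transporter gene Slc23a2 did not pass (6.84 and 6.72 against 6.63 and 6.05 FPKM, -0.08 ± 0.077 (SE), adjusted p = 0.527), while Gsto1, a dehydroascorbate reductase, rose from 176 and 185 to 212 and 212 FPKM (0.23 ± 0.043 (SE), adjusted p = 0.00218).

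**Figure D2:**
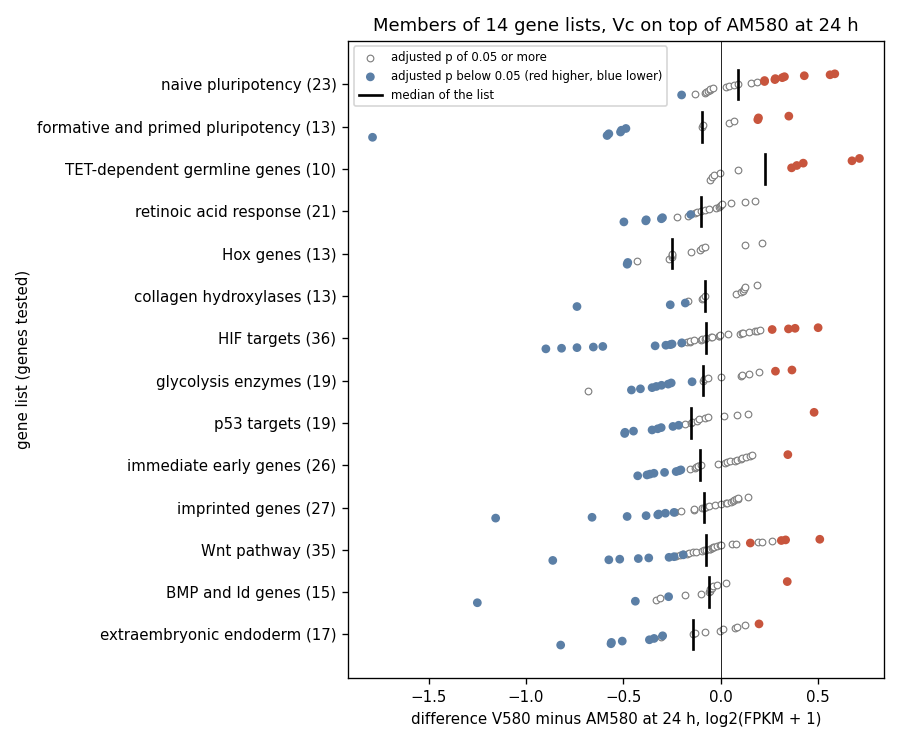
Differences V580 minus AM580 at 24 h, on the log2(FPKM + 1) scale, for the tested members of 14 gene lists, each point being 1 gene and the black bar the median of the list. Filled points passed at an adjusted p below 0.05 (red higher, blue lower), and the germline list is the only one of the 14 with its median above 0.1.

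Genes of naive pluripotency, the state of the inner cell mass, passed mostly as higher. Of 23 tested, 9 were higher and 1 lower (median 0.086), and 5 to 7 were higher with 1 library left out. Tdh, threonine dehydrogenase, rose from 13.4 and 13.3 to 20.8 and 20.3 FPKM (0.58 ± 0.055 (SE), adjusted p = 1.19e-05). Nr5a2, an orphan nuclear receptor upstream of Pou5f1, rose from 1.85 and 1.66 to 2.90 and 3.22 FPKM (0.56 ± 0.086 (SE), adjusted p = 0.000579), and Zfp42, also called Rex1, rose from 43.3 and 42.4 to 53.7 and 54.4 FPKM (0.33 ± 0.054 (SE), adjusted p = 0.000975). Nanog rose by 0.22 (40.4 and 42.6 to 47.1 and 50.2 FPKM), with an adjusted p of 0.0835 without AM580 replicate 1 and 0.0906 without V580 replicate 2. Tfcp2l1 rose by 0.43 and missed the threshold without a library of either group (adjusted p = 0.0901 without AM580 replicate 1 and 0.0557 without V580 replicate 1). Pou5f1 did not pass (-0.13 ± 0.055 (SE), adjusted p = 0.126), although it passed as lower in the fit of the 4 libraries only (adjusted p = 0.01), under equal library sums (adjusted p = 0.045) and with length and GC trends removed (adjusted p = 0.00203).

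Genes of the formative and primed states, through which cells leave naive pluripotency, gave 3 higher and 6 lower of 13 (median -0.097), and 6 were lower in every fit with a library left out. Fgf5, the classic primed marker, fell from 0.737 and 0.782 FPKM (35 and 35 fragments) to 0.151 and 0.197 FPKM (7 and 11 fragments), a difference of -0.58 ± 0.088 (SE), adjusted p = 0.000482. Lef1, a Wnt effector, fell from 2.65 and 2.82 to 1.58 and 1.44 FPKM (-0.57 ± 0.076 (SE), adjusted p = 0.000172), and the kinase gene Pim2 from 35.9 and 36.5 to 25.3 and 24.8 FPKM (-0.52 ± 0.045 (SE), adjusted p = 5.65e-06). Lefty1 belongs to the same list.

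Transcription factors of primitive endoderm, the extraembryonic lineage that retinoids can induce in ESCs, fell. Of 17 markers tested, 1 passed as higher and 7 as lower (median -0.15), and 5 to 7 were lower with 1 library left out. Gata6 was at 3.79 and 3.58 FPKM with AM580 and 1.58 and 1.72 FPKM with V580 (-0.82 ± 0.089 (SE), adjusted p = 3.53e-05), with 0.400 and 0.343 FPKM in the control libraries. Gata4, which also marks fetal gonadal somatic cells, fell from 0.647 and 0.816 FPKM (48 and 57 fragments) to 0.138 and 0.206 FPKM (10 and 18 fragments), a difference of -0.56 ± 0.10 (SE), adjusted p = 0.00191, and stood at 0.2996 and 0.287 FPKM in the control libraries. Both V580 libraries of Gata4 lay below both control libraries (23 and 21 fragments), a gap of few fragments that was not tested. Sox17 fell from 0.816 and 0.703 FPKM (74 and 60 fragments) to 0.271 and 0.206 FPKM (-0.51 ± 0.074 (SE), adjusted p = 0.000399), and Lama1, a basement membrane laminin chain, from 3.35 and 3.45 to 1.997 and 1.96 FPKM (-0.56 ± 0.10 (SE), adjusted p = 0.00127). The summed level of the 19 listed markers nevertheless was 744 to 753 FPKM with AM580 and 781 to 785 FPKM with V580, a sum to which Apoe, which passed as higher (0.20), and Sparc, which did not pass, gave the most. Fewer cells of a type and less RNA per cell cannot be told apart in bulk RNA.

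Gonadal somatic markers, the identity the study aimed at, were low at this time, with a summed level over 18 genes of 60.0 to 63.6 FPKM with AM580 and 51.3 to 54.4 FPKM with V580, against 1345 to 1510.1 FPKM in the libraries labelled E12.5_GC. Of 9 tested, 0 passed as higher and 4 as lower. Besides Gata4, Irx3 fell from 1.41 and 1.40 to 0.702 and 0.632 FPKM (-0.53 ± 0.11 (SE), adjusted p = 0.00449) and Podxl, podocalyxin, from 17.1 and 17.0 to 12.3 and 12.6 FPKM (-0.42 ± 0.05 (SE), adjusted p = 7.41e-05). Fst, follistatin, passed in the full fit (-0.26) but in none with a library left out (adjusted p = 0.0805 without AM580 replicate 1, 0.127 without AM580 replicate 2, 0.105 without V580 replicate 1 and 0.108 without V580 replicate 2). Wt1 (-0.13 ± 0.062 (SE), adjusted p = 0.181) and Wnt4 (-0.21 ± 0.11 (SE), adjusted p = 0.225) did not pass.

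A pair of direct retinoid targets that AM580 had raised did not pass the test for Vc. Cyp26a1 was at 22.4 and 22.4 FPKM with AM580 and 22.4 and 21.5 FPKM with V580 (-0.03 ± 0.09 (SE), adjusted p = 0.884). Rarb was at 0.760 and 0.913 FPKM with AM580 and 0.644 and 0.621 FPKM with V580 and did not pass (-0.17 ± 0.072 (SE), adjusted p = 0.139), against 0.0193 and 0.0304 FPKM in control libraries. Over all tested genes the shares were 7.44% higher and 7.31% lower. Of 21 retinoid response genes, 0 passed as higher and 6 as lower (median -0.1), the latter 1 to 4 with a library left out. Among them was Aldh1a3, a retinal dehydrogenase (2.18 and 1.96 to 1.097 and 1.25 FPKM, -0.50 ± 0.087 (SE), adjusted p = 0.00147). The carrier gene Crabp2 (-0.39) had an adjusted p of 0.156 without AM580 replicate 1 and 0.156 without V580 replicate 2, and Zfp703 (-0.31) of 0.256 without AM580 replicate 1, 0.198 without V580 replicate 1 and 0.0626 without V580 replicate 2.

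Hox genes, the other textbook targets, were low at this time. Of 13 tested, 0 passed as higher and 2 as lower, and 11 of 13 had a negative difference (median -0.25), with 4 lower when length and GC trends were removed. Hoxb4 fell from 3.96 and 4.72 to 2.92 and 2.72 FPKM (-0.48 ± 0.086 (SE), adjusted p = 0.00165) and Hoxb8 from 1.64 and 1.59 FPKM (82 and 75 fragments) to 0.838 and 0.917 FPKM (41 and 54 fragments), a difference of -0.48 ± 0.067 (SE), adjusted p = 0.000273. Stra8 was not analysed here.

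Secreted Wnt regulators changed in both directions. Of 35 Wnt pathway genes, 4 passed as higher and 8 as lower (median -0.077). The shares over all tested genes were 7.44% and 7.31%. Sfrp1, a secreted Wnt antagonist, fell from 10.2 and 10.03 to 5.29 and 4.92 FPKM (-0.86 ± 0.062 (SE), adjusted p = 9.12e-07), whereas its relative Sfrp2 rose from 1.12 and 1.01 to 1.93 and 1.95 FPKM (0.51 ± 0.07 (SE), adjusted p = 0.000229). The receptor gene Fzd8 fell from 3.10 and 3.04 to 1.92 and 1.77 FPKM (-0.52 ± 0.075 (SE), adjusted p = 0.000357), and Axin2, a feedback target of Wnt signalling, from 12.1 and 10.9 to 8.53 and 8.06 FPKM (-0.42 ± 0.069 (SE), adjusted p = 0.000866). Of 15 BMP and Id genes, 1 passed as higher and 3 as lower, beside the same shares. Msx1, a BMP-responsive homeobox gene, fell from 2.97 and 3.79 to 0.922 and 0.751 FPKM, 75.3% lower (-1.25 ± 0.10 (SE), adjusted p = 1.86e-06). Id2 fell from 37.1 and 35.9 to 26.6 and 26.8 FPKM (-0.44 ± 0.069 (SE), adjusted p = 0.000673) and Id1 from 49.1 and 49.8 to 42.1 and 39.7 FPKM (-0.27 ± 0.048 (SE), adjusted p = 0.00168), both inhibitors of bHLH factors. Smad6, an inhibitory Smad, was higher (0.34, with an adjusted p of 0.0657 without AM580 replicate 2 and 0.0643 without V580 replicate 2).

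Of 19 p53 targets, 1 passed as higher and 8 as lower (median -0.15), with 6 to 8 lower when a library was left out. Among all tested genes the shares were 7.44% higher and 7.31% lower. Cdkn1a, the cell cycle inhibitor p21, fell from 43.4 and 42.9 to 31.3 and 31.4 FPKM (-0.45 ± 0.053 (SE), adjusted p = 7.01e-05). Plk2 fell from 30.5 and 30.0 to 21.0 and 21.3 FPKM (-0.49) and Perp, a desmosomal protein, from 46.6 and 45.1 to 33.0 and 31.6 FPKM (-0.49). The exception was Sesn1, a sestrin, which rose from 4.39 and 4.35 to 6.55 and 6.42 FPKM (0.48 ± 0.066 (SE), adjusted p = 0.000241). Of 26 immediate early genes, 1 passed as higher and 8 as lower, the latter 2 to 7 with a library left out. Jun fell from 16.2 and 15.1 to 11.5 and 11.2 FPKM (-0.43 ± 0.063 (SE), adjusted p = 0.000394) and Ier5 from 10.4 and 9.72 to 7.88 and 7.17 FPKM (-0.38), while Zfp36, which destabilises mRNAs, was higher (0.34, with an adjusted p of 0.064 without V580 replicate 1). The integrated stress response list gave 3 higher and 6 lower of 21 (median -0.11), and 0 to 1 higher and 2 to 3 lower with a library left out. Of its 4 largest differences, those of Atf3 (-0.36), Ddit4 (-0.34), Atf5 (-0.28) and Trib3 (0.33), each missed the threshold without at least 2 of the 4 libraries (the highest adjusted p was 0.218 for Atf3, 0.216 for Ddit4, 0.317 for Atf5 and 0.0728 for Trib3).

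Antioxidant genes split, with 5 higher and 4 lower of 26 (median 0.05), with 1 to 2 higher when a library was left out and 8 higher after quantile normalization. All tested genes gave shares of 7.44% higher and 7.31% lower. Hmox1, haem oxygenase, fell from 279 and 265 to 193 and 185 FPKM (-0.52 ± 0.051 (SE), adjusted p = 1.53e-05), and Gclc, of glutathione synthesis, from 36.9 and 35.6 to 29.5 and 29.5 FPKM (-0.29 ± 0.048 (SE), adjusted p = 0.000931). Gsr, glutathione reductase, rose from 66.1 and 69.6 to 84.3 and 84.2 FPKM (0.31 ± 0.042 (SE), adjusted p = 0.000205). Of 12 metallothionein and iron genes, the transferrin receptor gene Tfrc fell from 59.7 and 58.6 to 49.8 and 49.2 FPKM (-0.25 ± 0.04 (SE), adjusted p = 0.000736) and Steap3, a ferrireductase, rose from 8.80 and 8.53 to 11.3 and 11.0 FPKM (0.33 ± 0.061 (SE), adjusted p = 0.00234).

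Imprinted genes, expressed from 1 parental allele under control of DNA methylation, passed only as lower. Of 27 tested, 0 were higher and 8 lower (median -0.085), and 5 to 7 were lower with 1 library left out. After Cdkn1c, the largest fall was that of Peg3, a zinc finger gene, from 48.3 and 46.7 to 31.0 and 28.4 FPKM (-0.66 ± 0.084 (SE), adjusted p = 0.00013). Snrpn fell from 68.9 and 66.9 to 49.99 and 46.8 FPKM (-0.48 ± 0.049 (SE), adjusted p = 2.21e-05) and Ndn from 7.40 and 6.90 to 5.18 and 5.31 FPKM (-0.38 ± 0.062 (SE), adjusted p = 0.000862), both genes of the Prader-Willi region. Igf2r (-0.06), Mest (0.03) and Grb10 (-0.09) did not pass.

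The counts of the remaining lists at 24 h stand beside shares over all tested genes of 7.44% higher and 7.31% lower. Cholesterol synthesis gave 3 higher and 0 lower of 22, which were Pmvk (13.8 and 11.8 to 16.1 and 15.3 FPKM, 0.28 ± 0.088 (SE), adjusted p = 0.0455), Sqle (16.02 and 15.5 to 18.2 and 19.7 FPKM, 0.25 ± 0.046 (SE), adjusted p = 0.0018) and Cyp51 (0.21). The Pmvk call was lost when a library was left out (adjusted p = 0.333 without AM580 replicate 2, 0.221 without V580 replicate 1 and 0.108 without V580 replicate 2). The 3 became 6 with equal library sums, 5 with voom and 7 with length and GC trends removed. Cell cycle and replication genes gave 1 higher, Ccne1 (105 and 106 to 129 and 127 FPKM, 0.28 ± 0.046 (SE), adjusted p = 0.001), and 4 lower of 30, the latter 1 to 2 with a library left out, 1 with equal library sums and 2 with voom. No tested gene of the neural (4 of 16 listed), trophoblast (6 of 16) or primitive streak (4 of 21) lists passed. The list of Zscan4 and other genes of the cleavage-stage-like state gave 0 of 6, out of 26 listed. Most members of these lists were thus not tested. With 14.8% of all tested genes passing in either direction, so few members say little about these states. Feeder fibroblast markers gave 1 higher and 2 lower of 13, with a summed level of 490 to 525 FPKM with AM580 and 446 to 467 FPKM with V580, and 12 of 15 markers had a mean of at least 1 FPKM in both groups. Acta2 was at 391 and 365 against 337 and 325 FPKM, a call lost without 3 of the libraries (adjusted p = 0.231 without AM580 replicate 1, 0.0666 without V580 replicate 1 and 0.18 without V580 replicate 2), and Twist1 at 10.6 and 9.03 against 6.91 and 5.99 FPKM (-0.54 ± 0.10 (SE), adjusted p = 0.002). The part of feeder RNA in the results above was not tested.

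Whether Vc acted alike with and without AM580 was examined against the Vc and control libraries of the same time, which share no library with the V580 and AM580 groups. Vc alone gave 1443 genes, 806 higher (7.57%) and 637 lower (5.98%), of which 6 (0.0564%) and 3 (0.0282%) were at least 2-fold. With equal library sums the split was 987 higher and 486 lower, and with voom 1046 and 549. The count of 1443 was 879 in a fit of the 24 h libraries only, 257 in a fit of the 4 Vc and control libraries only, 850 without control replicate 1 and 920 without control replicate 2. In all, 929 genes passed in both comparisons, which is 59.2% of the 1570 and 64.4% of the 1443, shares that hold for the fit of all 16 libraries. All 929 had the same sign in both. Across the 10644 genes, which are not independent, the differences had a Pearson correlation of 0.744 and a Spearman correlation of 0.698. Of the 12 leading rises, 11 also passed as higher with Vc alone, Themis2 being the exception, and all 12 leading falls passed as lower. Egln3 fell from 28.6 and 28.0 FPKM in control to 15.1 and 16.495 FPKM in Vc libraries (-0.80 ± 0.048 (SE)), close to its fall of 0.82 on top of AM580. Dazl rose from 12.2 and 12.2 to 21.4 and 22.2 FPKM (0.79 ± 0.067 (SE)), and Ly6a from 4.43 and 4.74 to 20.8 and 22.6 FPKM (2.02 ± 0.10 (SE)).

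**Figure D3:**
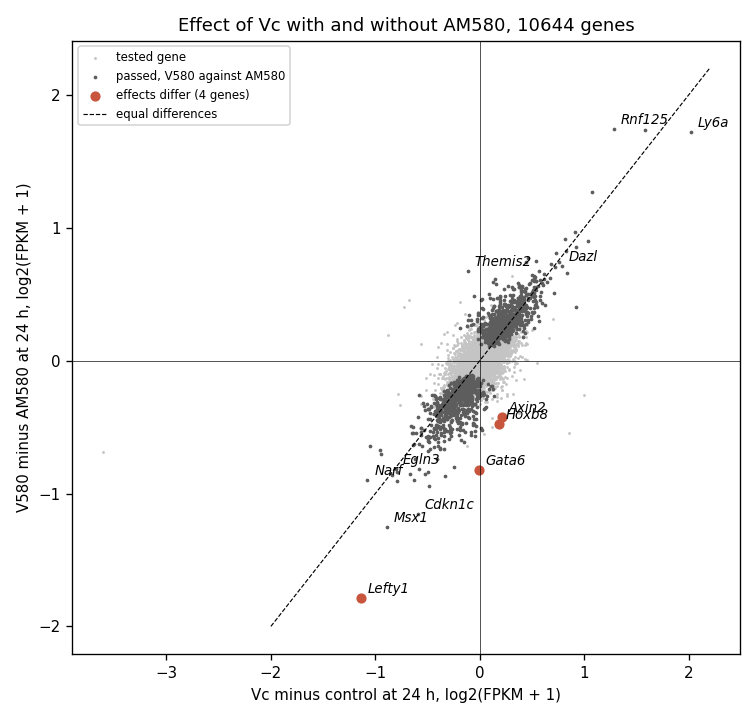
Difference V580 minus AM580 (vertical axis) against Vc minus control (horizontal axis) at 24 h on the log2(FPKM + 1) scale, each point being 1 of 10644 tested genes, with genes that passed for V580 against AM580 in dark grey and the 4 genes whose effects differed in red. Most dark points lie along the dashed line of equal differences, while the 4 red points lie below it, and the lone point at the far left is Gapdh.

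The difference between the effects passed for 4 genes (0.0376%), all more negative with AM580 present, and 472 genes had an unadjusted p under 0.05. Lefty1 fell by 1.14 with Vc alone (3.53 and 3.46 FPKM in control, 1.01 and 1.07 FPKM in Vc libraries) and by 1.79 on top of AM580, a difference of effects of -0.65 ± 0.063 (SE), adjusted p = 0.000572. Gata6 showed no difference that passed between the Vc (0.356 and 0.370 FPKM) and control libraries (-0.01 ± 0.089 (SE)) but fell on top of AM580, with a difference of effects of -0.81 ± 0.13 (SE), adjusted p = 0.0347. Hoxb8 had 0.483 and 0.405 FPKM in control and 0.650 and 0.623 FPKM in Vc libraries (0.18 ± 0.067 (SE)), a difference of effects of -0.66 ± 0.095 (SE), adjusted p = 0.0327. Axin2 was at 7.51 and 6.91 FPKM in control and 8.39 and 8.64 FPKM in Vc libraries (0.21 ± 0.069 (SE)), with -0.64 ± 0.10 (SE), adjusted p = 0.0347 for the difference of effects. The log2(FPKM + 1) scale shrinks changes at low levels, and the Lefty1 level was lower without AM580. Gata6 and Hoxb8 were below 1 FPKM in the control and Vc libraries, where a fall can hardly show on this scale. AM580 against control passed for 818 genes as higher (7.69%, 39 of them at least 2-fold, 0.366%) and 762 as lower (7.16%, 4 at least 2-fold, 0.0376%), in a comparison that shares the AM580 libraries. All 4 genes passed as higher there, and in each the V580 libraries lay between the control and the AM580 level or, for Lefty1, below both. This count was sensitive to single libraries, since it was 5 without control replicate 1, 2 without control replicate 2 and 1 without any other of the 8 libraries. It was 0 in a fit of the 24 h libraries only, and 1 with voom, with no filter on low values or with the replicate number as a block.

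**Figure D4:**
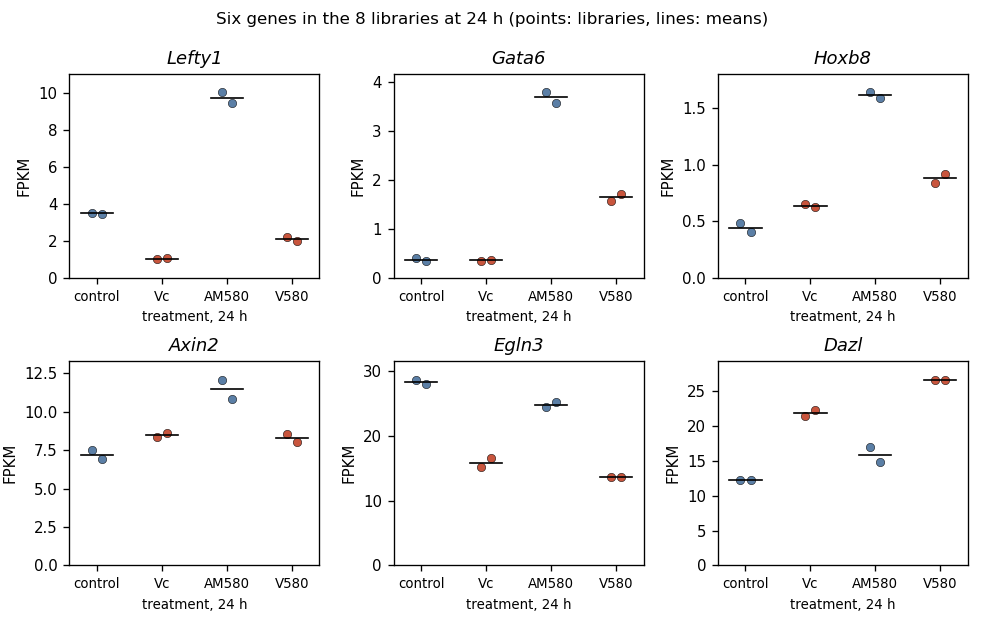
FPKM (linear axes from 0) of Lefty1, Gata6, Hoxb8, Axin2, Egln3 and Dazl in the 8 libraries at 24 h, with 2 points per treatment and a line at their mean (red with Vc, blue without). In the first 4 genes the step from AM580 to V580 differs from the step from control to Vc, and in Egln3 and Dazl Vc moves the level the same way with and without AM580.

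The same contrast at 48 h shares no library with that at 24 h. There, 906 genes passed as higher (8.51%) and 1140 as lower (10.7%), and 28 were also at least 2-fold (3 higher, 0.0282%, and 25 lower, 0.235%). The balance turned to 1402 higher and 906 lower with equal library sums and to 1386 higher and 965 lower with voom. The 48 h count of 2046 was 1197 without AM580 replicate 1, 1129 without V580 replicate 1 and 1222 without V580 replicate 2. Of the 1570 genes at 24 h, 706 passed at 48 h too, 640 with the same sign (40.8% of the 24 h and 31.3% of the 48 h genes) and 66 with the opposite sign. The difference between the times passed for 636 genes (5.98%), 228 more positive (2.14%) and 408 more negative (3.83%) at 48 h, with 16 of at least 2-fold (3 more positive, 0.0282%, and 13 more negative, 0.122%). That count was 375 and 419 without AM580 24 h replicates 1 and 2, 379 and 355 without V580 24 h replicates 1 and 2, and 419 without V580 48 h replicate 2. Of the 12 leading rises, 9 passed as higher at 48 h, and of the 12 leading falls, 10 passed as lower.

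Some early differences were smaller at 48 h, and some had turned. Ly6a was down to 0.0845 and 0.0438 FPKM with AM580 and 0.0415 and 0.227 FPKM with V580, and the difference of 0.09 did not pass. Rnf125 was at 0.305 and 0.356 FPKM with AM580 and 0.562 and 0.780 FPKM with V580 (0.33 ± 0.11 (SE), adjusted p = 0.0494). Lefty1 had risen to 492 and 507 FPKM with AM580, and V580 was still lower at 344 and 357 FPKM (-0.51 ± 0.045 (SE), adjusted p = 1.98e-06). Nanog turned, from higher at 24 h to 26.1 and 25.9 FPKM with AM580 against 17.4 and 17.2 FPKM with V580 (-0.56 ± 0.049 (SE), adjusted p = 1.95e-06). Of the 13 Hox genes, 8 passed as higher and 0 as lower at 48 h. Hoxb4 was at 38.7 and 37.0 FPKM with AM580 and 57.4 and 66.9 FPKM with V580 (0.70 ± 0.086 (SE), adjusted p = 5.23e-05), and the difference between the times passed for 7 of the 13 Hox genes.

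Other early differences remained or were larger. HIF targets gave 0 higher and 23 lower of 36 at 48 h (median -0.27), and the difference between the times passed as lower for 10 of them. Slc2a1, down by 0.25 at 24 h, was at 324 and 324 FPKM with AM580 and 123 and 129 FPKM with V580 at 48 h (-1.36 ± 0.039 (SE), adjusted p = 2.93e-11). P4ha1 went from a fall of 0.74 at 24 h to -1.24 ± 0.075 (SE), adjusted p = 6.91e-08 at 48 h. Dazl stayed higher with V580 (3.23 and 3.33 against 5.95 and 5.16 FPKM, 0.61 ± 0.067 (SE), adjusted p = 1.94e-05), as did Mep1b (0.334 and 0.346 against 2.73 and 2.66 FPKM, 1.46 ± 0.075 (SE)). Extraembryonic endoderm markers gave 0 higher and 14 lower of 17, with Gata4 at 5.32 and 5.72 FPKM with AM580 and 2.65 and 2.05 FPKM with V580 (-0.97 ± 0.10 (SE), adjusted p = 1.41e-05).

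**Figure D5:**
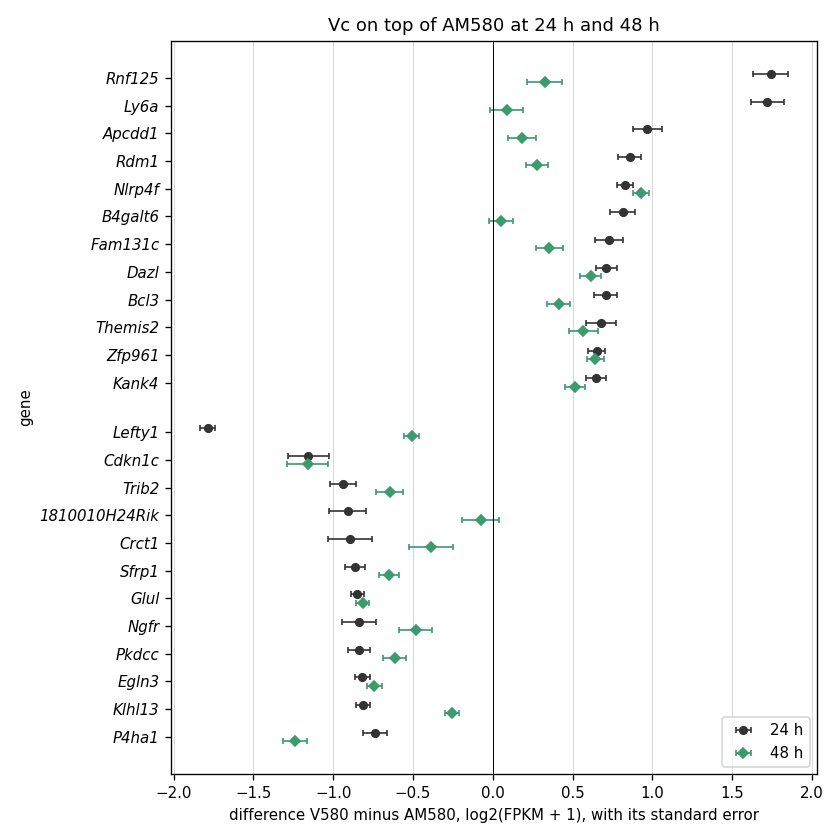
Difference V580 minus AM580 on the log2(FPKM + 1) scale, with its standard error from limma, for the 12 largest rises and 12 largest falls of 24 h, at 24 h (black circles, the values that chose the genes) and at 48 h (green diamonds). Ly6a, B4galt6 and 1810010H24Rik are near 0 at 48 h, Lefty1 is less negative, and P4ha1 is more negative at 48 h.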

How the data were processed

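RNA of bulk cultures was sequenced by the study from poly(A)-selected libraries. Per the labels, the submitters' processing notes name Trim Galore, FastQC, HISAT2, SAMtools, featureCounts, RSEM and the build mm10. The authors deposited FPKM per gene for 13682 genes, and how these were filtered is not given in the sources used here. All 31 FPKM columns of this table were matched to samples, and the other deposited tables were not used here. Genes with at least 1 FPKM in at least 2 of the 16 libraries at 24 h and 48 h (10644) were tested with limma-trend (version 3.58.1, R 4.3.3) on log2(FPKM + 1) in a model of 8 groups of 2 libraries, which share 1 estimate of the spread. Such differences understate the change of low genes. P-values were Benjamini-Hochberg adjusted over all tested genes, and 0.05 was the threshold. For a single gene, 2 against 2 libraries cannot reach an exact permutation p below 0.333. Whole fragments were recovered for 92.6% of genes, within 0.02 of a whole number, and used for the depth estimate and for voom. For voom, the fragments of 1006 other genes were filled in from their FPKM, exon length and the estimated depth. The recovered fragments of the 2 libraries of each group differed by more than sampling noise (chi-square per degree of freedom 1.912 to 4.789). The labels do not say that a replicate number marks a shared culture or day. Deviations of same-numbered libraries correlated at -0.0466 between AM580 and V580 at 24 h, from -0.424 to 0.0825 over all pairs of groups at 24 h and from 0.0036 to 0.209 at 48 h, so no pairing was used. Named genes were the 12 largest rises and 12 largest falls of at least 5 FPKM without overlap, up to 4 genes per list that passed with the largest differences, 14 fixed genes and up to 5 genes each way whose effects differed at 5 FPKM or more. Mep1b, Kng2, the neighbours of Rnf125, Pdk1, Ak4, Vegfa, Bnip3, Slc2a3, Pfkm, Gapdh, Piwil2, Ddx4, Stag3, the Plod genes, Dnmt3l, Apoe, Sparc, Wt1, Wnt4, Igf2r, Mest, Grb10 and other genes that did not pass were named after their values were seen. Some genes that this rule names are not reported here. The gene lists and the members were chosen with earlier results of these data known. Gene positions are from GENCODE vM21 and promoters from RefSeq GRCm38.p6. The scripts were tested on simulated data.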

Additional observations from a re-analysis of the deposited data

Results flagged for a closer look

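The effect of Vc differed with AM580 present for 4 genes at 24 h, by limma's test of the difference itself. Most of these calls were lost under other settings, with 0 genes in the fit of 1 time only, 1 with the replicate block, with voom or with no filter on low values, and 1 when any of 6 of the 8 libraries was left out. The difference of the effects, with AM580 minus without it, was -0.65 for Lefty1 (adjusted p = 0.000572), -0.81 for Gata6 (adjusted p = 0.0347), -0.66 for Hoxb8 (adjusted p = 0.0327) and -0.64 for Axin2 (adjusted p = 0.0347). Gata6 and Hoxb8 were below 1 FPKM without AM580, where a fall can hardly show on the log2(FPKM + 1) scale. Among the 12 leading rises and falls and Nanog, the difference between V580 and AM580 changed from 24 h to 48 h for 10 genes, by the same kind of test. As 48 h minus 24 h, it was -1.63 for Ly6a (adjusted p = 1.28e-05), -1.42 for Rnf125 (adjusted p = 8.53e-05), -0.79 for Apcdd1 (adjusted p = 0.00187), -0.76 for B4galt6 (adjusted p = 0.000744) and -0.58 for Rdm1 (adjusted p = 0.00294). It was -0.79 for Nanog (adjusted p = 1.25e-05) and -0.50 for P4ha1 (adjusted p = 0.0115). Among the other falls it was 1.28 for Lefty1 (adjusted p = 3.31e-08), 0.83 for 1810010H24Rik (adjusted p = 0.00683) and 0.56 for Klhl13 (adjusted p = 8.82e-05).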

How the results depend on the processing

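The limits are 2 libraries a side, small differences and no statement that libraries are separate cultures. Each 2-fold count below is on the log2(FPKM + 1) scale, which leaves out low genes that changed as much in FPKM. The planned and added settings left the number of genes for V580 against AM580 at 24 h between 1092 and 2010, except where a library was left out (792 to 896) or where at least a 2-fold difference was required (7). The added settings, voom on recovered and filled-in fragments (1780), removal of length and GC trends (1954) and the crossed block, were chosen after seeing the data. Vc against control at 24 h moved from 1443 to 9 with a 2-fold difference, 879 in the fit of 1 time only, 257 in the fit of its 4 libraries only, and 850 to 1369 with a library left out. Under equal library sums it split into 987 higher and 486 lower, and V580 against AM580 at 48 h into 1402 higher and 906 lower. The 4 genes whose Vc effect differed with AM580 became 0 with a 2-fold difference, 1 with no filter on low values, 8 at a minimum of 5 FPKM, 0 in the fit of 1 time only, 7 after quantile normalization, 1 with voom, 8 with length and GC trends removed, and 1 to 5 with a library left out. V580 against AM580 at 48 h (2046) gave 28 genes with a 2-fold difference and 1129 to 1380 with a library left out. The difference between 48 h and 24 h (636) gave 16 with a 2-fold difference and 355 to 438 with a library left out. The cause of these changes was not tested, beyond the fewer genes and samples of some settings.

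With only 2 numbers and no label for what they share, the replicate numbers were not used to pair the libraries. With the replicate number as a block, V580 against AM580 at 24 h gave 1413 genes, Vc against control 1249, the difference of the Vc effects 1, V580 against AM580 at 48 h 1859 and the difference between the times 515. Same-numbered control and Vc libraries at 24 h correlated at -0.424, and a block with the Vc numbers crossed gave 1574 genes for Vc against control, 1693 for V580 against AM580 at 24 h and 5 for the difference of the Vc effects. Of the values of single named genes under all settings, 1728 kept their direction and their side of the threshold, 109 kept the direction but missed the threshold, 4 newly passed it and 0 turned.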

Other observations

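Several groups with 0 to 3 genes called at 24 h gave more calls at 48 h in the same contrast. There, 8.51% of all tested genes passed as higher and 10.7% as lower. Of the trophoblast list 6 of 16 genes were tested, and of the cleavage-stage-like list 6 of 26. Trophoblast markers, at 0 of 6 at 24 h, gave 0 higher and 6 lower at 48 h (median -0.86), and the difference between the times passed as lower for 5. Krt8, a simple-epithelium keratin, was at 51.4 and 50.6 FPKM with AM580 and 47.2 and 45.8 FPKM with V580 at 24 h, and at 101 and 95.7 FPKM with AM580 and 40.1 and 43.4 FPKM with V580 at 48 h (-1.22 ± 0.055 (SE), adjusted p = 3.05e-09). Cholesterol synthesis genes gave 14 higher and 0 lower of 22 at 48 h (median 0.2), against 3 and 0 at 24 h (5 to 7 higher at 24 h with equal library sums, voom or length and GC trends removed), and the difference between the times passed as higher for 3. Genes of the cleavage-stage-like state gave 4 higher of 6 at 48 h, among them Zscan4f (5.82 and 5.36 FPKM with AM580, 12.1 and 15.5 FPKM with V580, 1.16 ± 0.15 (SE), adjusted p = 7.82e-05), which belongs to a family of near-identical copies. Krt8 and Zscan4f were named after their values were seen.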
